A study of Homo sapiens with 12 samples.

Results

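Semaphorins, plexins, ephrins and Eph receptors are the ligands and receptors of the main repulsive and attractive guidance systems of growing axons, vessels and migrating tumour cells. Their members were taken by gene symbol from the probe annotation of the array (SEMA, PLXN, EFN, EPHA and EPHB symbols of the regular form), with no use of measured values, and 50 of the 17958 genes tested belonged to them. They comprised 20 semaphorins, 9 plexins, 8 ephrins, 9 EphA receptors and 4 EphB receptors. The samples were 12 Affymetrix Human Gene 1.1 ST arrays of BT549 cells, a triple-negative breast cancer cell line, with 3 biological replicates in each of 4 groups. Cells received a control siRNA or ERβ2 siRNA for 48 h, or, with another transfection reagent, pcDNA3 empty vector (EV) or the same vector carrying flag-tagged ERβ2 cDNA (ERβ2 plasmid) for 24 h. ERβ2 is a splice variant of estrogen receptor β, encoded by ESR2. All transfections were transient and in 1 cell line. Which siRNA sequences were on the arrays is not stated. The comparisons ask which members responded to ERβ2 knockdown and to ERβ2 overexpression.

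Semaphorins are secreted (class 3) or membrane-bound (classes 4 to 7) proteins that bind plexins, most class 3 members through the co-receptors neuropilin 1 and neuropilin 2. A bound plexin acts on small GTPases and so loosens adhesion and collapses the actin cytoskeleton. Ephrins are tethered to the cell surface, ephrin-A ligands by a lipid anchor and ephrin-B ligands by a transmembrane segment, and they bind Eph receptor tyrosine kinases on the neighbouring cell. Signals run both ways across such a contact, forward through the Eph receptor and in reverse through the ephrin. In breast tumours both systems are studied for their roles in cell migration, invasion and vessel growth.

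All values below are RMA signals on the log2 scale, 1 value per gene and array, and a signal is compared only with the same gene's signal in other arrays, since probes of different genes differ in brightness. The array medians lay between 5.04 and 5.14, and the mean correlation of an array with the others of its group was between 0.993 and 0.997, lowest for EV replicate 2. The 6 markers fixed for mesenchymal-like breast cancer cells (VIM, FN1, CDH2, ZEB1, CD44 and SPARC) had mean signals from 9.07 to 12.3. Of 8 luminal markers, ESR1 (3.93), PGR (3.47), FOXA1 (4.66), CDH1 (3.95) and EPCAM (3.95) lay at the low end, whereas GATA3 (8.52), KRT8 (7.44) and KRT18 (10.02) did not. Their summed signal was 46.1 to 46.9 in the control siRNA arrays, 47.5 to 48.0 with ERβ2 siRNA, 44.3 to 44.9 with EV and 43.8 to 46.3 with the ERβ2 plasmid. By the threshold given below, KRT18 (log2 change 0.88), KRT8 (0.78) and CDH1 (0.17) were higher after ERβ2 knockdown, and GATA3 (−0.29) was lower. The other 4 luminal markers did not pass, and the median log2 change of all 8 was −0.04. The higher sum thus does not stand for the list as a whole. The part of these marker changes in the results below was not tested. Endothelial markers (3.44 to 3.92) and PTPRC, CD3E and HBB of the blood markers (3.45, 3.21 and 3.18) were low, while CD14 (6.35) was not. ESR2 changed by −0.02 with ERβ2 siRNA (standard error (SE) 0.09, adjusted p = 0.913 from limma) and by 0.47 with the ERβ2 plasmid (SE 0.10, adjusted p = 0.449 from limma). It read 4.08, 3.93 and 4.01 with EV and 4.35, 4.72 and 4.37 with the plasmid, without overlap. Its cluster has a dim mean of 4.11 and does not separate the isoforms, so it gives no check of the siRNA labels. The paper reports lower ERβ2 mRNA by qPCR in BT549 cells given ERβ2 siRNA.

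ERβ2 knockdown raised the signal of 19 of the 50 members and lowered that of 10, while 21 did not pass the test. The threshold was an adjusted p of 0.1 or less (Benjamini-Hochberg) in limma, fitted across all 17958 genes with 3 arrays against 3. Over all genes tested, 18.3% passed higher and 17.5% passed lower, and 35.8% passed in either direction against 58% of the members. The median log2 change was 0.06 over the members and −0.03 over all genes, and the median size of the change, whatever its direction, was 0.20 and 0.13. The arrays of both groups did not overlap for 20 members that were higher and 10 that were lower, against 21.1% and 21.3% of all genes. No filter on dim genes was applied. Among the 33 members with a mean signal of at least 5 over the 12 arrays, 19 passed higher and 6 lower, and 46.8% of all genes that bright passed. Of the 17 dimmer members, with means from 3.27 to 4.84, none passed higher and 4 passed lower (SEMA3B, SEMA4A, EPHA1 and EPHB3). Shares of all bright genes by direction, and shares of all dimmer genes, were not computed. Without them, the split by brightness cannot be read as a trait of the members.

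The direction differed among the subfamilies. Of the 9 plexins 7 rose and none fell, and all 9 estimates were above 0 (median 0.34). Among the 20 semaphorins 8 rose and 3 fell, and among the 8 ephrins 3 rose and 2 fell. Of the 9 EphA receptors 1 rose and 2 fell, and of the 4 EphB receptors none rose and 3 fell. These counts describe the members and were not tested against each other.

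**Figure D1:**
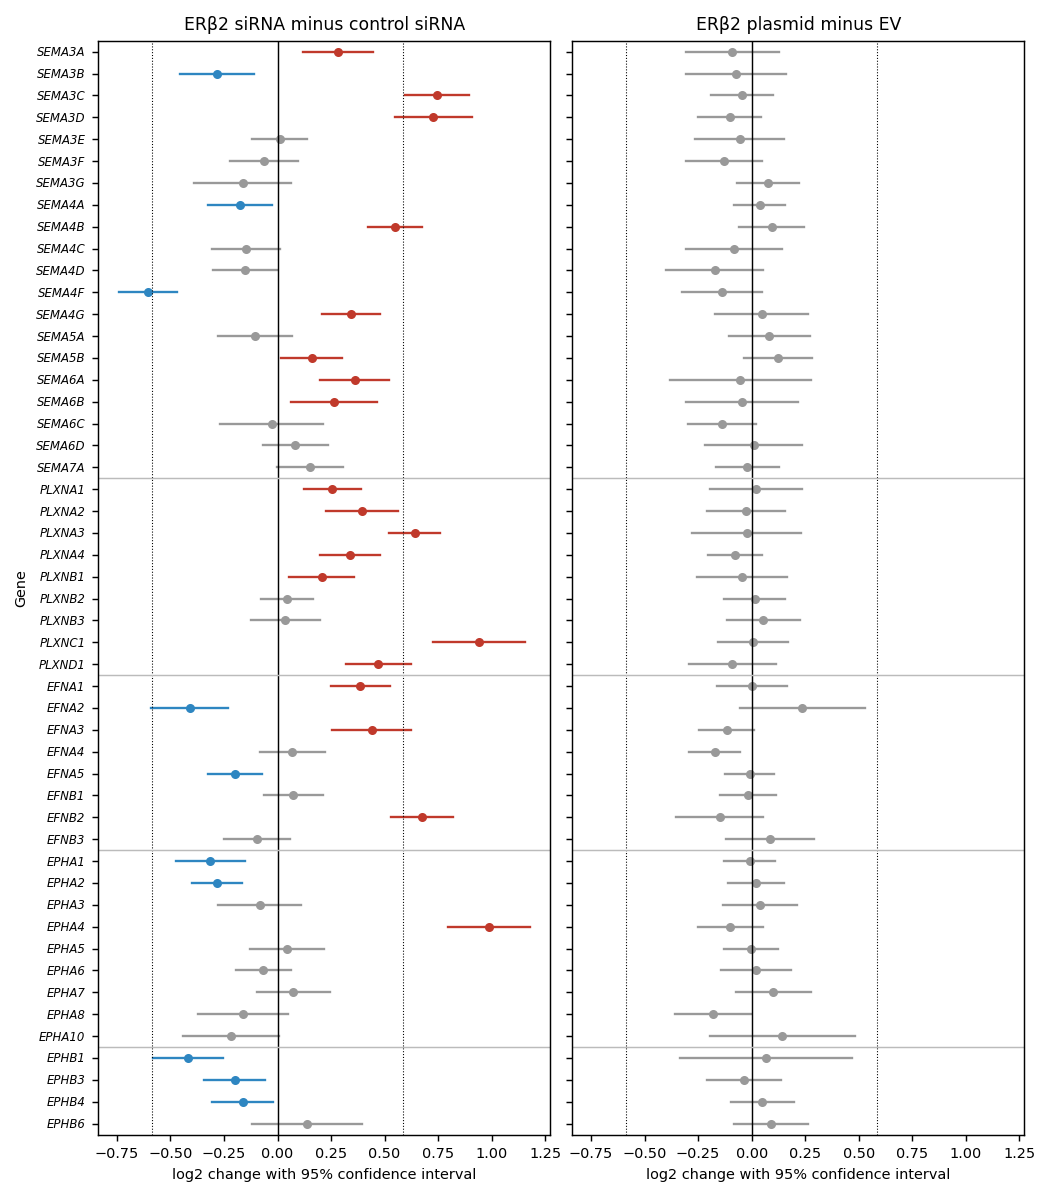
Log2 change (x axis) with its 95% confidence interval from limma for each of the 50 members (y axis), ERβ2 siRNA minus control siRNA on the left and ERβ2 plasmid minus EV on the right, 3 arrays per group. Red and blue mark members that passed higher and lower at an adjusted p of at most 0.1, grey those that did not, and dotted lines mark 1.5-fold. All 9 plexins lie right of 0 on the left panel, and no member is coloured on the right panel.

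Of the 29 members that passed for the knockdown, 7 also reached 1.5-fold. EPHA4, PLXNC1, SEMA3C, SEMA3D, EFNB2 and PLXNA3 were upregulated to that extent, and SEMA4F was repressed. Over all genes, 3.25% reached 1.5-fold higher and 1.26% reached 1.5-fold lower. The bases before the transcription start of 4 of the genes are printed here because an estrogen receptor binds DNA at a palindrome of GGTCA half-sites, and the strongest responders differ in whether they hold a half-site. Each sequence is the 250 bases upstream of the RefSeq start in GRCh38.p14, 5′ to 3′ on the gene's strand. Capitals mark a half-site, GGTCA or its reverse complement TGACC. SEMA3C, PLXNA3 and PLXNC1 are the 3 of the 7 genes with a half-site in this window, and EPHA4 is the gene with the largest rise.
SEMA3C promoter (chr7:80922390-80922639, minus strand): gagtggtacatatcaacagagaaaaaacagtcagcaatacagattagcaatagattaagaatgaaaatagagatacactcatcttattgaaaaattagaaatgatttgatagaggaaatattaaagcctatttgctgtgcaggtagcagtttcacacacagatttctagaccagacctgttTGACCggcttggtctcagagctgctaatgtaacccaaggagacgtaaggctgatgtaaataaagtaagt
PLXNA3 promoter (chrX:154458031-154458280, plus strand): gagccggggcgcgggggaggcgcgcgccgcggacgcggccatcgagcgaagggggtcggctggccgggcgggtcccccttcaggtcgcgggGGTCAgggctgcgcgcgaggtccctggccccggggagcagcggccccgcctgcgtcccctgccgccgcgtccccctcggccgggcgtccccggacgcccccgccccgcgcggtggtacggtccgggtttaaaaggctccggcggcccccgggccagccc
PLXNC1 promoter (chr12:94262369-94262618, plus strand): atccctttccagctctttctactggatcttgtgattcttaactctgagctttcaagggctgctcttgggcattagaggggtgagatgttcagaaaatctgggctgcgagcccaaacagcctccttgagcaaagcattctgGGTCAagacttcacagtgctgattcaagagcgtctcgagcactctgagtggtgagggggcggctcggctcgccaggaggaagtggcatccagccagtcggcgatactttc
EPHA4 promoter (chr2:221574203-221574452, minus strand): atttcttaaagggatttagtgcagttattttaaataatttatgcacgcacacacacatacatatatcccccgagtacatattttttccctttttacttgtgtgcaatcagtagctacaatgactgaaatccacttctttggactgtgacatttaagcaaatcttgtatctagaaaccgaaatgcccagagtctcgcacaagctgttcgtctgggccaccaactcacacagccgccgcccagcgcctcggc

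Promoters were matched for 45 of the 50 members, among them all 7 of these genes. A half-site on either strand occurred in 15 of the 45, against 32.6% of the 35116 RefSeq promoters of the same length. By response to the knockdown, it was found in 5 of 16 members that rose, 3 of 10 that fell and 7 of 19 that did not pass. The full palindrome GGTCANNNTGACC was in none of the 45 and in 0.0399% of all promoters. The hypoxia-inducible factor core ACGTG was in 6 of the 45 (18.5% of all), and the box TATAAA in 1, EFNB2 (10.7% of all). A loose AP-1-like pattern, TGANTCA with any base at N, was in 1, PLXNC1 (6.57% of all), where it read TGATTCA. The GC box GGGCGG was in 35 of the 45, against 42.6% of all promoters. The 35116 promoters were not restricted to the genes tested, so none of these shares comes from a set matched to the members. These are matches of letters in a short window and say nothing about binding.

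Among the semaphorins, SEMA3C and SEMA3D, secreted class 3 ligands that act through neuropilins and class A plexins, rose the most. SEMA3C (transcript cluster 8140534) read 9.41, 9.28 and 9.29 with control siRNA, against 10.06, 10.00 and 10.15 with ERβ2 siRNA. Every knockdown array was above every control array, and the change was 1.67-fold (log2 change 0.74, SE 0.07, adjusted p = 9.84e-05 from limma). SEMA3D (cluster 8140686) read 6.94, 6.90 and 7.17 in the controls and 7.77, 7.68 and 7.74 after knockdown. The groups did not overlap, and the rise was 1.65-fold (log2 change 0.73, SE 0.08, adjusted p = 2.88e-04 from limma). SEMA3D lies beside SEMA3A on chromosome 7, which in turn lies beside SEMA3E, with no protein-coding gene between the neighbours in RefSeq. The log2 changes along this row were 0.01 for SEMA3E, which did not pass, 0.28 for SEMA3A, the first described collapsing factor of growth cones, and 0.73 for SEMA3D.

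The membrane-bound class 4 semaphorins SEMA4B and SEMA4F moved in opposite directions. SEMA4B read 9.90, 10.00 and 9.93 with control siRNA and 10.48, 10.47 and 10.53 with ERβ2 siRNA. The arrays were well apart, with a log2 change of 0.55 (SE 0.06, adjusted p = 2.03e-04 from limma), just below 1.5-fold. SEMA4F (cluster 8042925) read 5.70, 5.76 and 5.69 in the controls and 5.08, 5.06 and 5.19 after knockdown. All knockdown arrays were lower, with a fall of 1.52-fold (log2 change −0.61, SE 0.06, adjusted p = 1.73e-04 from limma). SEMA4F passed the test under every alternative, but its change was short of 1.5-fold after cyclic loess (−0.58), with each array centred on its median (−0.55), without ERβ2 siRNA replicate 2 (−0.58) and with the mean of its 2 clusters (−0.42). The second, dimmer cluster of SEMA4F changed by −0.24 (SE 0.13, adjusted p over all clusters = 0.277 from limma).

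Smaller rises were measured for SEMA6A (0.36), SEMA4G (0.34), SEMA6B (0.26) and SEMA5B (0.16), all transmembrane semaphorins. SEMA3B, a secreted semaphorin described as a tumour suppressor, fell by 0.28 on the log2 scale, and SEMA4A, known from immune cells, fell by 0.17. The adjusted p of SEMA5B (0.0915 from limma) and SEMA4A (0.0846 from limma) lay close to the threshold. Neither gene was followed singly through the alternatives. The 9 semaphorins that did not pass were SEMA3E, SEMA3F, SEMA3G, SEMA4C, SEMA4D, SEMA5A, SEMA6C, SEMA6D and SEMA7A, with log2 changes between −0.16 and 0.15.

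The receptors of the semaphorins moved one way. PLXNC1 (cluster 7957570), the receptor of SEMA7A, read 5.23, 4.87 and 4.92 in the controls, against 5.93, 5.91 and 6.0 after knockdown. The groups did not overlap, and the rise was 1.92-fold (log2 change 0.94, SE 0.09, adjusted p = 1.94e-04 from limma). PLXNA3 (cluster 8170921), a class A plexin that pairs with neuropilins, read 7.84, 7.90 and 7.92 against 8.54, 8.52 and 8.52. The knockdown arrays were nearly identical and all above the controls, with a rise of 1.56-fold (log2 change 0.64, SE 0.05, adjusted p = 7.63e-05 from limma). PLXND1, which binds SEMA3E without a neuropilin, read 5.98, 6.03 and 6.08 in the controls and 6.39, 6.54 and 6.57 after knockdown. It was higher in each knockdown array, by 0.47 on the log2 scale (SE 0.07, adjusted p = 0.00115 from limma). The class A plexins PLXNA2 (0.39), PLXNA4 (0.34) and PLXNA1 (0.26) and the class B plexin PLXNB1 (0.21), a receptor of SEMA4D, also rose. PLXNB2 changed by 0.04 and PLXNB3 by 0.04, and neither passed.

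Of the ephrins, EFNB2 changed most. EFNB2 (cluster 7972713) encodes ephrin-B2, the transmembrane ligand known as a mark of arterial endothelium and the main partner of EphB4. It read 7.60, 7.47 and 7.52 with control siRNA and 8.12, 8.23 and 8.26 with ERβ2 siRNA. The groups were clearly apart, with a rise of 1.59-fold (log2 change 0.67, SE 0.06, adjusted p = 1.47e-04 from limma). Ephrin-A3 and ephrin-A1, lipid-anchored ligands of EphA receptors, rose less. EFNA3 read 6.02, 6.24 and 6.30 against 6.66, 6.56 and 6.66, and its lowest knockdown array was above its highest control array (log2 change 0.44, SE 0.08, adjusted p = 0.00431 from limma). EFNA1 read 6.5, 6.62 and 6.63 against 6.95, 7.02 and 6.94, again without overlap (log2 change 0.39, SE 0.06, adjusted p = 0.00195 from limma). EFNA3 and EFNA1 are neighbours on chromosome 1 with no protein-coding gene between them, while EFNA4, which lies beyond EFNA3 with 1 protein-coding gene between, changed by 0.07 and did not pass.

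Ephrin-A2 moved the other way. EFNA2 read 5.74, 5.88 and 5.83 in the controls and 5.28, 5.55 and 5.39 after knockdown, lower in every array (log2 change −0.41, SE 0.08, adjusted p = 0.00556 from limma). EFNA5 fell by 0.20 on the log2 scale. EFNB1 (0.07) and EFNB3 (−0.10) did not pass.

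EPHA4 stood alone among the Eph receptors in rising. EPHA4 (cluster 8059279) encodes a receptor that binds both ephrin-A and ephrin-B ligands. It read 8.11, 7.93 and 8.0 in the controls, against 9.16, 8.89 and 8.95 after knockdown. The lowest knockdown array was well above the highest control array, and the rise of 1.98-fold was the largest change of any member (log2 change 0.99, SE 0.08, adjusted p = 8.36e-05 from limma). EPHA2, the receptor of ephrin-A1 and one often abundant in basal-like breast cancer lines, read 11.02, 11.04 and 11.06 against 10.74, 10.77 and 10.76. The replicates were tight and did not overlap, with a log2 change of −0.28 (SE 0.05, adjusted p = 0.00405 from limma). EPHA1 read 4.23, 4.38 and 4.2 against 3.90, 3.92 and 4.05, a fall of a dim signal in all knockdown arrays (log2 change −0.31, SE 0.07, adjusted p = 0.0118 from limma). The other 6 EphA receptors, EPHA3, EPHA5, EPHA6, EPHA7, EPHA8 and EPHA10, had means under 5 and changes between −0.22 and 0.07, and none passed.

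The EphB receptors, which bind ephrin-B ligands, fell or did not pass. EPHB1 read 5.69, 5.91 and 5.91 with control siRNA and 5.44, 5.41 and 5.41 with ERβ2 siRNA, apart in all arrays (log2 change −0.42, SE 0.07, adjusted p = 0.00313 from limma). Its second, dimmer cluster changed by 0.02, and the mean of both clusters by −0.20. EPHB3 read 4.44, 4.30 and 4.27 against 4.13, 4.16 and 4.12, and EPHB4, the receptor of ephrin-B2, read 9.74, 9.65 and 9.72 against 9.59, 9.45 and 9.58. Both had small falls without overlap, of −0.20 (SE 0.06, adjusted p = 0.0444 from limma) and −0.16 (SE 0.06, adjusted p = 0.0848 from limma). Among the passing members given with every array, these 2 missed the threshold under the most alternatives. EPHB3 did not pass after another quantile normalization (adjusted p = 0.133 from limma), cyclic loess (0.150), centring on the median (0.167), an intensity trend with a robust prior (0.1003) or without ERβ2 siRNA replicate 1 (0.104) or 3 (0.125). EPHB4 did not pass with centring on the median (0.284), with all clusters in the fit (0.150), or without control siRNA replicate 1 (0.163) or 3 (0.182) or ERβ2 siRNA replicate 1 (0.103), 2 (0.230) or 3 (0.132). EPHB6, a receptor without kinase activity, changed by 0.14 and did not pass.

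**Figure D2:**
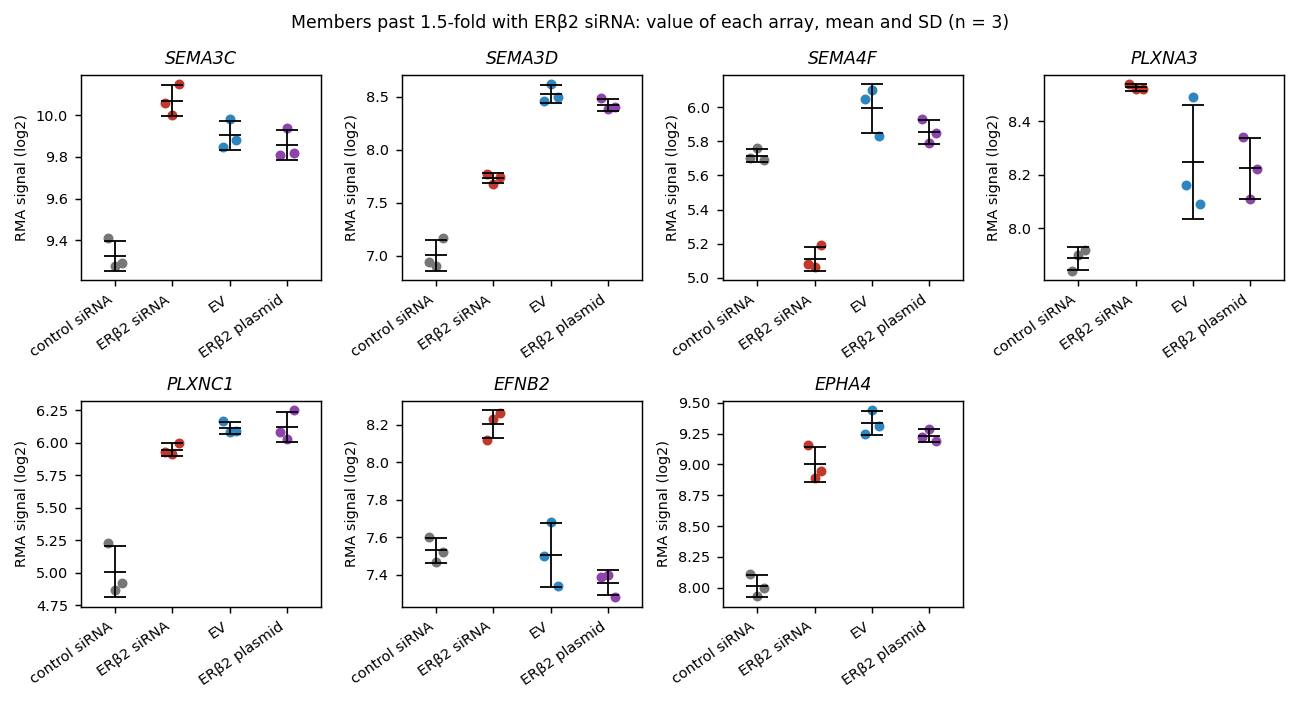
RMA signal on the log2 scale (y axis, not from 0) in each array of the 4 groups (x axis) for the 7 members that passed and reached 1.5-fold with ERβ2 siRNA. Points are arrays, the long bar is the mean and the whiskers are the SD of 3 replicates. In all 7 panels the ERβ2 siRNA arrays do not overlap the control siRNA arrays. In EPHA4, SEMA3D, PLXNC1 and SEMA4F the EV and ERβ2 plasmid arrays lie above both siRNA groups.

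Some known ligand and receptor pairs can be set side by side. They were chosen after the values were seen. EFNB2 rose (0.67) while its receptor EPHB4 fell (−0.16), and EFNA1 rose (0.39) while its receptor EPHA2 fell (−0.28). PLXNC1 rose (0.94) and its ligand SEMA7A changed by 0.15 without passing (adjusted p = 0.127 from limma). PLXND1 rose (0.47) and its ligand SEMA3E, at a dim mean of 3.41, changed by 0.01. In bulk RNA a change in every cell and a change in a fraction of the cells cannot be told apart.

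Partners of these proteins were counted from lists, to be read against the 18.3% of all genes that rose and the 17.5% that fell in the knockdown. Of 12 genes listed as semaphorin co-receptors 4 rose and 2 fell (median log2 change −0.03). NRP2 (0.50) and NRP1 (0.38), the neuropilins that hold class 3 semaphorins, and MET (0.51), a receptor kinase that associates with plexin-B1, were higher, and L1CAM, an adhesion molecule in the SEMA3A receptor complex, rose by 0.23. TIMD4 (−0.34), a lymphoid and macrophage receptor, and TREM2 (−0.17) were lower at dim signals of 3.62 and 3.51. Among 32 measured genes of plexin signalling 11 rose and 5 fell (median 0.05). MICAL2 (0.79), which oxidises actin, DPYSL5 (0.61), a collapsin response mediator, and RRAS (0.45), the GTPase that plexins switch off, were higher, and CDK5 (−0.50), a kinase of the SEMA3A response, was lower.

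Of 30 measured genes of Eph and ephrin signalling 10 rose and 2 fell (median 0.14). VAV3 (0.83), an exchange factor that ephrin-A1 recruits to EphA receptors, changed most, followed in order of p by CRKL (0.32), an adaptor, RGS3 (0.38), which binds ephrin-B, and PTPN1 (0.35), a phosphatase of Eph receptors. Among 22 other axon guidance cues and receptors 5 rose and 5 fell (median −0.05). NTN4 (0.77), a netrin, SLIT3 (0.59) and SLIT2 (0.33), ligands of ROBO receptors, and ROBO4 (0.73), a receptor best known from endothelium, were higher, as was RTN4 (0.18). The 5 that fell were the ROBO family members ROBO3 (−0.31) and ROBO2 (−0.30), RGMA (−0.29) and RGMB (−0.25), ligands of neogenin, and the netrin receptor UNC5C (−0.17). Both counts of this list are near the shares of all genes. The endothelial markers PECAM1, CDH5, KDR and VWF had means from 3.44 to 3.92, and none of them rose. With the ERβ2 plasmid, 0 genes of each of these 4 lists passed. Among named partners that rose, NRP2, NRP1, MET, MICAL2, DPYSL5, CRKL, PTPN1, NTN4, SLIT2, SLIT3, ROBO4 and RTN4 had their lowest mean with control siRNA. L1CAM, RRAS, VAV3 and RGS3 did not.

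**Figure D3:**
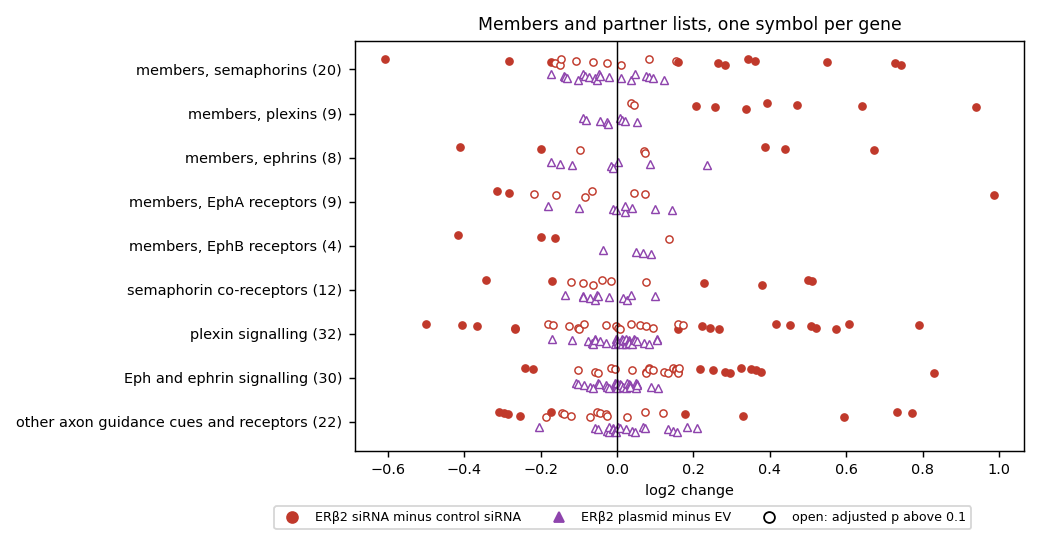
Log2 change (x axis) of every measured gene of the 5 member subfamilies and of the 4 lists of partners (y axis, number of genes in brackets). Red circles are ERβ2 siRNA minus control siRNA, purple triangles are ERβ2 plasmid minus EV, and filled symbols passed at an adjusted p of at most 0.1. Filled red circles lie on both sides of 0 in every row but those of the plexins, where all are to the right, and the EphB receptors, where all are to the left, and no triangle is filled.

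The ERβ2 plasmid left no member past the test. With the plasmid against EV, 0 of the 50 members passed, against 2 of all 17958 genes (0.0111%), and the lowest adjusted p of a member was 0.567 from limma. At an unadjusted p under 0.05 there were 2 members, EFNA4 and EPHA8, against 7.02% of all genes. The log2 changes ran from −0.18 to 0.24, with a median of −0.01 over the members and −0.0033 over all genes. The widest 95% confidence interval of a member, without adjustment for the number of genes, reached 0.40 to either side of its estimate. This width is not the smallest change that could pass, since an interval clear of 0 was not enough. The intervals of EFNA4 (−0.29 to −0.05) and EPHA8 (−0.36 to −0.003) excluded 0, yet both genes missed the threshold. ESR2, with a log2 change of 0.47, missed it too. Changes above 0.40 could thus go unseen, and the smallest change that would pass was not computed. The arrays of both groups were apart for 1 member that was higher, EFNA2, and 2 that were lower, EFNA3 and EFNA4, against 5.35% and 6.67% of all genes.

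The 4 members with the smallest p were all lower with the plasmid. EFNA4, a lipid-anchored ephrin, read 8.32, 8.27 and 8.26 with EV and 8.07, 8.12 and 8.14 with the plasmid (log2 change −0.17, SE 0.05, adjusted p = 0.567 from limma). EPHA8 read 4.29, 4.07 and 4.12 against 4.08, 3.96 and 3.90 (−0.18, SE 0.08, adjusted p = 0.704 from limma). The first pair of groups was apart and the second overlapped, and neither difference passed over all genes. EFNA3 read 6.14, 6.16 and 6.05 with EV and 5.98, 5.98 and 6.04 with the plasmid (−0.12, SE 0.06, adjusted p = 0.744 from limma). SEMA6C, a transmembrane semaphorin, read 6.02, 6.17 and 5.97 against 5.92, 5.85 and 5.97 (−0.14, SE 0.07, adjusted p = 0.748 from limma). In the knockdown EFNA4 changed by 0.07, EPHA8 by −0.16 and SEMA6C by −0.03, none of which passed, while EFNA3 rose by 0.44.

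The members that responded most to the knockdown gave small differences with the plasmid. EPHA4 read 9.25, 9.44 and 9.31 with EV and 9.22, 9.29 and 9.19 with the plasmid (log2 change −0.10, 95% confidence interval −0.25 to 0.05). PLXNC1 read 6.17, 6.08 and 6.09 against 6.08, 6.03 and 6.25 (0.01, interval −0.16 to 0.17). SEMA3C read 9.85, 9.98 and 9.88 against 9.81, 9.94 and 9.82 (−0.05, interval −0.19 to 0.10). These groups overlapped, and the intervals lie inside 1.5-fold. SEMA3D read 8.46, 8.62 and 8.5 against 8.49, 8.38 and 8.40 (−0.10, interval −0.25 to 0.04). EFNB2 read 7.50, 7.68 and 7.34 against 7.39, 7.40 and 7.28 (−0.15, interval −0.35 to 0.05). PLXNA3 read 8.16, 8.49 and 8.09 against 8.34, 8.11 and 8.22 (−0.02, interval −0.28 to 0.23). In the last, EV replicate 2 was the highest array, and without it the estimate was 0.10. SEMA4F read 6.05, 6.10 and 5.83 against 5.93, 5.79 and 5.85 (−0.14, interval −0.32 to 0.05).

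The effect of ERβ2 siRNA minus that of the plasmid was tested in 1 fit over all 12 arrays. The difference was above 0 for 15 members and below 0 for 6, while 29 did not pass, against 15% and 11.3% of all genes. It reached 1.5-fold for 6 members above 0 (4.04% of all genes) and 1 below 0 (1.46%). EPHA4 (1.09), PLXNC1 (0.93), SEMA3D (0.83), EFNB2 (0.82), SEMA3C (0.79) and PLXNA3 (0.66) had the larger siRNA effect, and EFNA2 had a difference of −0.65. EFNA2 read 5.54, 5.05 and 5.55 with EV and 5.60, 5.59 and 5.66 with the plasmid. EV replicate 2 was the lowest of these arrays, and without it the difference of EFNA2 was −0.48 (adjusted p = 0.00624 from limma) and that of PLXNA3 was 0.54 (adjusted p = 0.00139 from limma), both below 1.5-fold. None of these genes passed with the plasmid, so the differences do not show opposite effects of knockdown and overexpression. The siRNA and plasmid arrays also differ in reagent, nucleic acid and time after transfection. The part of these conditions in the differences cannot be told apart from that of ERβ2.

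The control groups themselves differed for many members. EV minus control siRNA shares its arrays with both comparisons above, so the values are set side by side here and support neither of them. EV arrays were higher than control siRNA arrays for 12 members and lower for 13 (19.2% and 22.4% of all genes), and 25 did not pass. At 1.5-fold 6 were higher and 1 lower (5.57% and 1.3% of all genes). SEMA3D (log2 change 1.52), EPHA4 (1.32), PLXNC1 (1.11), SEMA3A (0.82), PLXND1 (0.68) and PLXNA2 (0.67) were higher with EV, and EPHB4 (−0.69) was lower. EPHB4 read 8.94, 9.11 and 8.98 with EV and 9.09, 9.0 and 9.09 with the plasmid, all below the 6 siRNA arrays.

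For EPHA4, PLXNC1, SEMA3D, SEMA3C and PLXND1, the control siRNA group had the lowest mean of the 4, as it did for PLXNA3, SEMA3A, PLXNA2 and other members that rose with ERβ2 siRNA. SEMA3C was 0.58 higher with EV than with control siRNA, just short of 1.5-fold, and its ERβ2 siRNA arrays lay above both plasmid groups. PLXND1 read 6.66, 6.91 and 6.57 with EV and 6.67, 6.57 and 6.63 with the plasmid, at or above the ERβ2 siRNA arrays. Some members that rose with ERβ2 siRNA, among them EFNB2, SEMA4B and EFNA1, did not have this order. EFNB2 with EV differed from control siRNA by −0.02 (adjusted p = 0.857 from limma), while SEMA4B (−0.27) and EFNA1 (−0.16) were lower with EV. SEMA4B read 9.64, 9.78 and 9.61 with EV and 9.84, 9.74 and 9.73 with the plasmid, and EFNA1 read 6.38, 6.48 and 6.41 with EV and 6.53, 6.45 and 6.30 with the plasmid. In both genes the ERβ2 siRNA arrays were the highest of all 12.

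**Figure D4:**
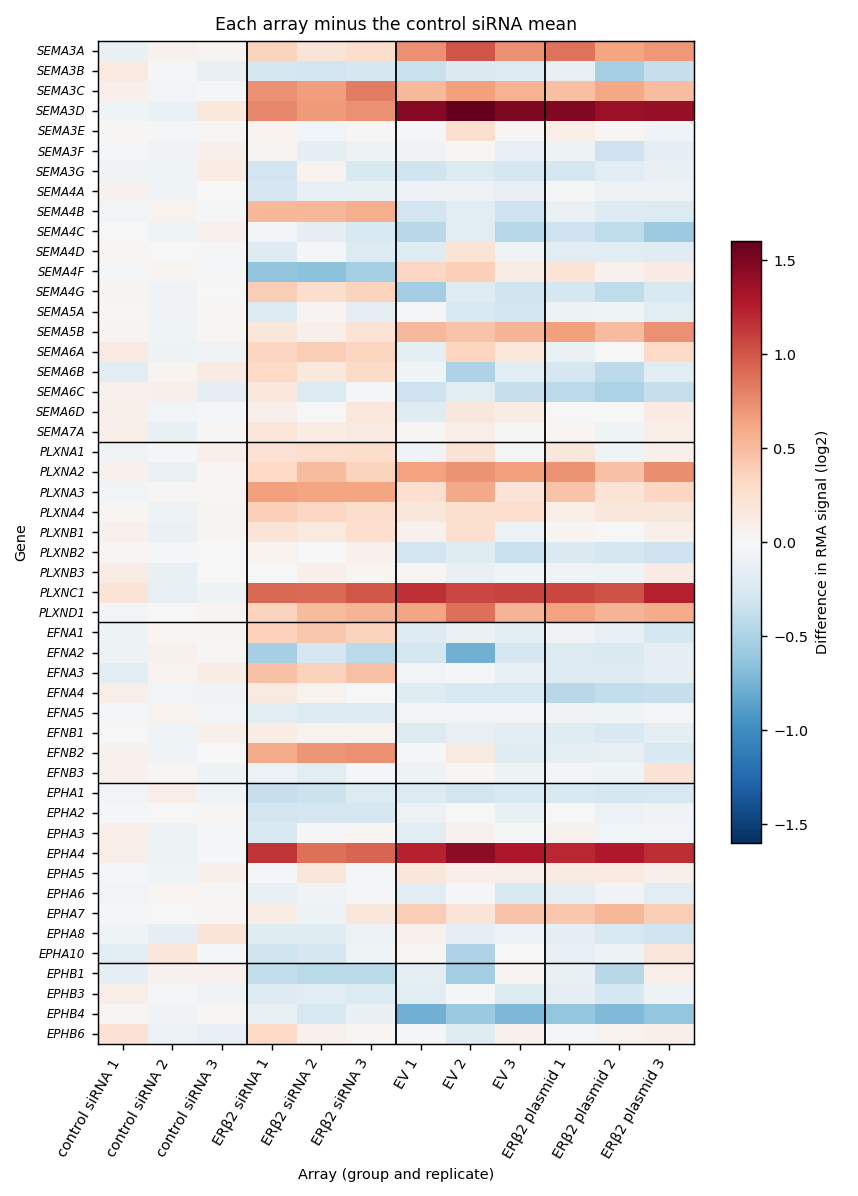
Difference of each array (x axis, group and replicate) from the control siRNA mean in RMA signal on the log2 scale (colour) for the 50 members (y axis, divided by subfamily). SEMA3D, PLXNC1 and EPHA4 are red in the ERβ2 siRNA, EV and ERβ2 plasmid arrays alike, whereas EFNB2 and SEMA4B are clearly red in the ERβ2 siRNA arrays and pale or blue in the plasmid groups.

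The remaining Eph receptors named above had little spread between the plasmid groups. EPHA2 read 10.95, 11.03 and 10.92 with EV and 11.03, 10.95 and 10.98 with the plasmid, EPHA1 read 4.05, 3.98 and 4.03 against 4.03, 3.99 and 4.01, and EPHB3 read 4.16, 4.31 and 4.12 against 4.18, 4.05 and 4.25. These groups overlapped in all 3 genes. EPHB1 varied more, at 5.69, 5.28 and 5.88 with EV and 5.72, 5.39 and 5.94 with the plasmid, a spread within each group wider than the fall measured with ERβ2 siRNA.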

How the data were processed

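The deposited values are log2 signals, which the authors computed by RMA with Affymetrix Expression Console software (version not given in the sources used) from total RNA on Human Gene 1.1 ST arrays. The base is not stated and was taken as 2. Arrays hold no counts, so the number of arrays limits the precision. The siRNA and plasmid groups were set by the labels, which call the arrays biological replicates without saying what was repeated, so the p-values measure the spread between these arrays.

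Of 33297 transcript clusters, 19181 carried 1 gene symbol, 2055 carried more than 1, and the annotation lacked 12061. The cluster with the highest mean was used per gene, which gave 17958 genes. Changes were fitted with limma 3.58.1 in R 4.3.3 (lmFit, eBayes) within each pair of groups, and the difference of both effects over all 12 arrays. A change passed at an adjusted p (Benjamini-Hochberg) of at most 0.1, and was reported as 1.5-fold where the unadjusted p was also under 0.05. The scripts were tested on simulated data.

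Members given with every array were those past 1.5-fold in an ERβ2 comparison or in the difference of both effects, the 3 with the smallest p for ERβ2 siRNA in each subfamily and the 4 with the smallest p for the plasmid. From each list of partners up to 4 genes with the smallest p are given, and L1CAM, TREM2, RTN4, ROBO2, ROBO3, RGMA, RGMB, UNC5C and the members that did not pass but are given with their change were added after their values were seen. The members and the lists were chosen with earlier results of these data known. Replicate numbers were not used to pair arrays, since the labels do not say what was repeated. Deviations of equally numbered arrays correlated at 0.22, 0.14 and 0.01 (ERβ2 siRNA and control siRNA), −0.14, −0.09 and 0.10 (plasmid and EV) and −0.24, −0.16 and 0.12 (EV and control siRNA). Unequally numbered arrays gave −0.19 to 0.06, −0.13 to 0.19 and −0.18 to 0.30. In the siRNA groups the values of equal numbers 1 and 2 were thus the highest, and pairing there is not excluded.

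Alternatives were another quantile normalization, cyclic loess, centring on array medians, leaving out dim genes (mean under 5), the mean of a gene's clusters, all clusters in the fit, an intensity trend with a robust prior, 1 fit over all 4 groups, the t-test and q-values of the study's methods, a threshold of 0.05, fold and p thresholds added, a replicate block and the omission of each array in turn. Promoters and gene order are from RefSeq (GRCh38.p14), not from the array's build.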

Additional observations from a re-analysis of the deposited data

Results flagged for a closer look

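For 7 members the effect of ERβ2 siRNA differed from the effect of the ERβ2 plasmid by at least 1.5-fold, by an interaction term in limma over all 12 arrays. The difference in log2 change was 1.09 for EPHA4 (SE 0.11, adjusted p = 2.54e-05 from limma), 0.93 for PLXNC1 (SE 0.12, adjusted p = 2.10e-04 from limma) and 0.83 for SEMA3D (SE 0.10, adjusted p = 1.26e-04 from limma). In these 3 genes, the receptor of both ephrin classes, the SEMA7A receptor and a class 3 semaphorin, the control siRNA arrays were the lowest of the 12. The difference was 0.82 for EFNB2 (SE 0.11, adjusted p = 2.56e-04 from limma), 0.79 for SEMA3C (SE 0.09, adjusted p = 5.72e-05 from limma) and 0.66 for PLXNA3 (SE 0.13, adjusted p = 0.00293 from limma). In SEMA3C and PLXNA3, but not in EFNB2, the control siRNA arrays were again the lowest of the 12. EFNA2 alone had a difference below 0, of −0.65 (SE 0.16, adjusted p = 0.0137 from limma). Its EV replicate 2 was the lowest of its plasmid and EV arrays, and the difference without that array was −0.48. No single group has 4 or more arrays, so single arrays far from their group were not looked for.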

How the results depend on the processing

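Each of the 7 members past 1.5-fold in the knockdown passed the test in every alternative that gave a value. Leaving out 1 array at a time gave 16 to 20 members higher and 8 to 11 lower for the knockdown, 0 to 0 for the plasmid in each direction, 12 to 13 higher and 11 to 15 lower for EV minus control siRNA, and 12 to 15 above and 4 to 7 below 0 for the difference of both effects. Centring each array on its median left 6 members lower in the knockdown. With the fold and p thresholds added, 6 members were higher and 1 was lower in the knockdown, in EV minus control siRNA and in the difference of both effects alike. The t-test of the study's methods with q-values and both thresholds, an alternative added after the data were seen, also gave 6 and 1 in the knockdown and in EV minus control siRNA. With Benjamini-Hochberg adjustment, the methods' t-test gave 16 higher and 8 lower in the knockdown and 8 lower in EV minus control siRNA. The cause of these shifts was not tested, except that an added threshold can only remove calls.

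With the replicate number as a block, 20 members were higher and 9 lower in the knockdown, 0 and 0 with the plasmid, 12 and 11 in EV minus control siRNA, and 14 and 5 in the difference of both effects. The largest shift of the median of all genes under another scaling was 0.053, with centring on array medians in the knockdown.

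Changes of sign occurred for values that did not pass. The knockdown change of SEMA6C was 0.027 with median centring and ran from −0.12 to 0.068 when 1 array was left out, above 0 without control siRNA replicate 1 (0.01) or 2 (0.015) or ERβ2 siRNA replicate 2. With the plasmid, PLXNA3 ran from −0.10 to 0.098 (without EV replicate 2) and was 0.033 without plasmid replicate 2, and PLXNC1 ran from −0.058 (without plasmid replicate 3) to 0.052 and was below 0 without EV replicate 2 (−0.01) or 3 (−0.005). EFNB2 in EV minus control siRNA ran from −0.11 to 0.06 (without EV replicate 3) and was 0.012 without control siRNA replicate 1. EPHB4 in the knockdown was also short of the threshold in the methods' t-test after Benjamini-Hochberg adjustment, and at a threshold of 0.05. Signals of the 17 dim members limit what can be seen there.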
